A study of Mus musculus with 96 samples.

Results

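The proteins that coat lipid droplets, the regulators of droplet lipolysis and the nuclear receptor Pparg with its target genes were examined in mouse liver through 10 genes, Plin2, Plin4, Plin5, Cidec, Cideb, G0s2, Pnpla2, Pparg, Cd36 and Fabp4. The genes were taken by name from the target table, and all 10 were found among the 7394 genes measured. RNA was measured in formalin-fixed, paraffin-embedded liver sections of 5 µm with GeoMx, a method in which barcoded probes are hybridised to tissue RNA and ultraviolet light frees the barcodes of a chosen area of illumination (AOI) for sequencing. The 16 mice were males in 4 groups of 4, namely HetKO mice on a high-fat diet (HFD), HetKO mice on a low-fat diet (LFD), Wt mice on the HFD and Wt mice on the LFD, and feeding lasted 15 weeks from about 8 weeks of age. HetKO mice carried 1 disrupted copy of Gaa, which encodes the lysosomal enzyme that breaks down glycogen. LoxP sites placed around a pair of Gaa exons by a CRISPR/Cas9 method disrupted the gene in the whole body without any Cre, and the line had been crossed back to C57BL/6. In every mouse 3 AOIs lay in the perivenous zone around the central vein, picked by a Cyp2e1 antibody, and 3 in the periportal zone around the portal tract, picked by an E-cadherin antibody, which gave 96 AOIs.

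Triglyceride in hepatocytes is kept in lipid droplets, whose surface carries proteins that decide how fast the fat is stored or released. Perilipins (Plin2, Plin4, Plin5) sit on that surface and limit access of lipases, and Plin2 is the perilipin typical of hepatocytes. Cidec joins droplets into larger ones and is high in adipocytes and in fatty liver, while Cideb takes part in the lipidation of very low density lipoprotein. Pnpla2, known as adipose triglyceride lipase, starts triglyceride breakdown, and G0s2 inhibits it. Pparg is the receptor that drives fat storage in adipocytes and is low in normal liver. Cidec, Plin4, Cd36 (a fatty acid transporter) and Fabp4 (a fatty acid carrier of adipocytes, macrophages and capillary endothelium) are known Pparg targets, and Plin2 and G0s2 respond to Ppara as well as to Pparg.

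Receptors of this family bind DNA as partners of Rxr at a repeat of the core motif AGGTCA. Promoter windows of 300 bases (250 before and 50 after the start) were available for 9 of the 10 genes in RefSeq on build GRCm38.p6, as 13 windows. The core motif occurred on either strand in 6 of these 13 windows, belonging to Cd36, Plin2, Plin5 and Pparg, and in 16.26% of all 32851 promoter windows. The DR1 repeat, a pair of these motifs on the same strand with 1 base between them, occurred in 0 of the 13 and in 0.04% of all. A match is a description of letters and no evidence of binding. The windows of Plin2 (chr4:86670010-86670309, minus strand) and Cd36 (chr5:17835847-17836146, minus strand) are shown because, of the genes with the motif, these were above background in most AOIs. They are printed 5′ to 3′, and capitals mark the core motif, which lies on the reverse strand and reads TGACCT, from position -218 in Plin2 and -228 in Cd36 relative to the start.
Plin2: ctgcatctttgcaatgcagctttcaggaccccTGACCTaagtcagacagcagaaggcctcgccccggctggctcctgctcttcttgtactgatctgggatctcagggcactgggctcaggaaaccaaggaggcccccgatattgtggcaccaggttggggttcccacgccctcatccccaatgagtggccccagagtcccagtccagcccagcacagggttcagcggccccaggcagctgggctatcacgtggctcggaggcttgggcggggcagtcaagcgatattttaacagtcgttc
Cd36: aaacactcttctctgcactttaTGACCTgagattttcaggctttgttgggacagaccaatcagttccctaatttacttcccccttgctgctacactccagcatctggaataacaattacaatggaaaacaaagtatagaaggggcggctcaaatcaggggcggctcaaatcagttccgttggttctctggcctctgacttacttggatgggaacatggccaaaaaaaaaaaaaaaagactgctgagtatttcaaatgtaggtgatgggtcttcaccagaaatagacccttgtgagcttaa

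Each deposited value was a read count scaled so that every AOI had the same upper quartile, 60.2, and the scaled count of a mouse is the mean over its 3 AOIs of a zone. An AOI gave between 60874 and 1772443 reads, with a median of 536938, and held between 118 and 788 nuclei. An AOI covers several cell types, so fewer cells of a type and less RNA per cell cannot be told apart. All LFD sections were on slide 1 and all HFD sections on slide 2, so diet and slide cannot be told apart. Library names of 5 AOIs of HetKO LFD mouse 1 carried another number than the rest. Their sequencing saturation was 64.1% to 68.5%, against 86.1% to 91.6% in the other AOIs. Cyp2e1 was higher in perivenous areas by 4.37 to 4.83 on the log2 scale in every group, whereas Cdh1, which encodes E-cadherin, was lower there by 1.18 and 1.09 in HetKO LFD and Wt LFD mice but did not pass the test in HetKO HFD (-0.45) or Wt HFD mice (-0.09). Gaa averaged 50.5 ± 7.38 in HetKO LFD and 73.4 ± 5.38 in Wt LFD periportal areas (SD, n = 4 each, adjusted p = 0.999, limma). Every HetKO LFD mouse, at 41.1 to 59.03, lay below every Wt LFD mouse, at 67.9 to 80.4. Perivenous LFD groups did not overlap either, at 37.1 to 55.3 in HetKO and 57.6 to 70.1 in Wt mice. The adjusted p was at least 0.999 for every gene in both LFD comparisons, so it cannot set Gaa apart from other genes. On the HFD Gaa averaged 42.6 ± 10.8 in HetKO and 48.9 ± 7.99 in Wt periportal areas (adjusted p = 0.570, limma), and groups overlapped in both zones. Wt HFD mouse 1 stood apart from the other Wt HFD mice: its negative probe, which matches no mouse RNA and reads the background, was at 21.2 in periportal and 20.5 in perivenous areas, against 29.3 to 38.9 in the others.

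Detection differed widely among the 10 genes. A gene was counted as detected in an AOI when its reads were above the limit of quantification (LOQ), a level set from the negative probes of that AOI. Cideb passed it in 96 of 96 AOIs, Plin2 in 95, G0s2 in 86, Pnpla2 in 69 and Cd36 in 55. Pparg passed it in 37 AOIs, Fabp4 in 34, Plin5 in 27, Cidec in 18 and Plin4 in 12. All 10 met the minimum of 10 AOIs for testing, as did 6805 of the 7394 genes. Plin4 and Cidec met it mainly through perivenous AOIs and through AOIs of HFD mice. Those were the sides on which their called differences, given below, were higher. The same differences were also called without this minimum.

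The AOIs above the LOQ were unevenly spread over the groups. Cidec passed in 8 of 12 perivenous AOIs of HetKO HFD mice and 3 of 12 of HetKO LFD mice, and in 3 and 0 of 12 of Wt HFD and Wt LFD mice. Plin4 passed in 3 or fewer of 12 in every group and zone. Pnpla2 passed in 1 of 12 perivenous AOIs of Wt HFD mice and 11 of 12 of Wt LFD mice, against 12 of 12 in both HetKO groups. Plin5 passed in 2 of 12 perivenous AOIs of HetKO HFD mice and 9 of 12 of HetKO LFD mice while its mean was 44.3 in HetKO HFD and 44.9 in HetKO LFD mice. Pparg passed in 2 of 12 perivenous AOIs of Wt HFD mice and 8 of 12 of Wt LFD mice while its mean count was 52.5 in the Wt HFD mice and 46.5 in Wt LFD mice. The LOQ itself, on the scaled count, averaged 65.9 ± 6.20 in Wt HFD and 38.6 ± 8.58 in Wt LFD perivenous areas (SD, n = 4), so the same scaled count could pass it on one diet and not on the other.

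**Figure D1:**
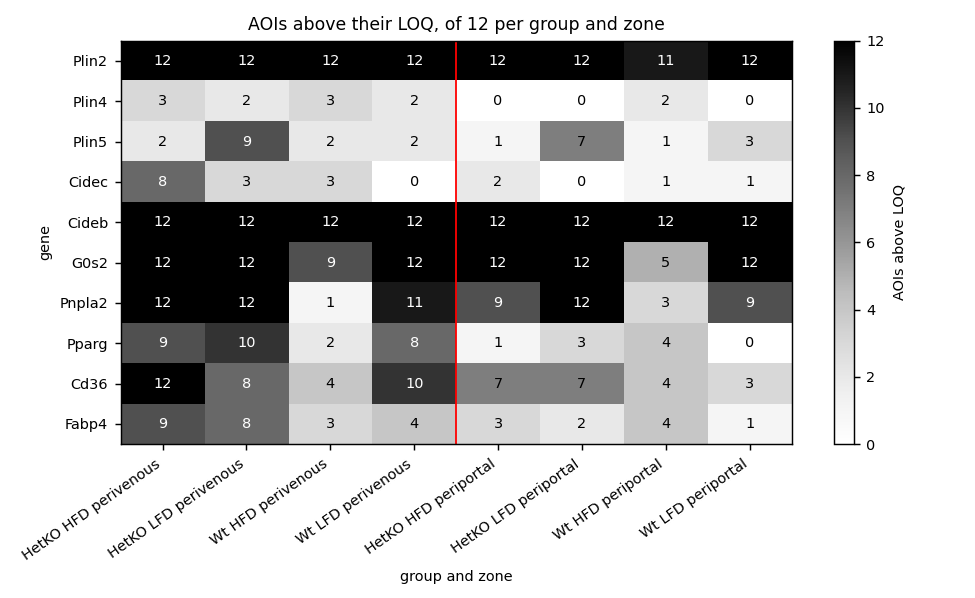
Number of AOIs above the LOQ for each of the 10 genes, of 12 in each group and zone. Cideb was above it in all 12 everywhere, while Plin4 was above it in 3 at most and Cidec reached 8 of 12 only in HetKO HFD perivenous areas.

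Members rose and fell on the HFD in Wt mice. In periportal areas Plin4, Plin5, Cidec, Pparg, Cd36 and Fabp4 rose and Cideb and G0s2 fell, 8 of 10, where 28.1% of all 6805 tested genes were called (15.4% higher and 12.7% lower). In perivenous areas Plin5 and Cidec rose and Cideb, G0s2 and Pnpla2 fell, 5 of 10, where 22.5% of all genes were called (10.2% higher and 12.3% lower). In HetKO mice Fabp4 alone was called in periportal areas, where 8.82% of all genes were (3.63% higher and 5.19% lower). In HetKO perivenous areas Plin4, Cidec, Pparg and Fabp4 rose and Cideb fell, 5 of 10, where 22.1% of all genes were called (12.4% higher and 9.74% lower). A fit over all 4 groups of a zone, which shares 1 estimate of the spread, ended every diet call of HetKO mice (0 of 10 members in either zone), with 2 of all genes called in perivenous and 4 in periportal areas, in place of 1504 and 600. Overlap of groups was judged on the means of log2 values. Groups of the 2 diets did not overlap for 5 of the 10 genes in Wt periportal areas (21.2% of all genes), 3 in Wt perivenous (19.4%), 1 in HetKO periportal (15.1%) and 2 in HetKO perivenous areas (22.5%). The median log2 difference of the 10 genes was 0.66 in Wt periportal areas and 0.23 in each of the other 3 comparisons. Medians over all tested genes were 0.11 (Wt periportal), 0.09 (Wt perivenous), 0.02 (HetKO periportal) and 0.05 (HetKO perivenous). Over the 2908 genes above the LOQ in at least 48 AOIs they were -0.29, -0.32, -0.14 and -0.16, in the same order. Each test was limma on log2 of the scaled count plus 1, with Benjamini-Hochberg adjustment over all tested genes, and 0.05 was the threshold for a call.

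The negative probe was also higher on the HFD. It averaged 29.7 ± 6.47 in Wt HFD and 16.5 ± 4.45 in Wt LFD periportal areas, a log2 difference of 0.82, and 30.6 ± 7.59 in Wt HFD and 19.1 ± 4.78 in Wt LFD perivenous areas, 0.65 on the log2 scale (SD, n = 4). In HetKO mice it was 0.33 higher on the HFD in periportal and 0.39 higher in perivenous areas. The log2 rise of a gene exceeded that of the negative probe for Plin4 and Pparg in Wt periportal areas, for Plin5 and Cidec in Wt perivenous areas, for 4 genes in HetKO periportal areas and for 5 in HetKO perivenous areas. Over the 32 means of a mouse and zone, log2 values of Pparg (r = 0.70), Plin5 (0.69), Fabp4 (0.63), Cidec (0.55), Plin4 (0.46) and Cd36 (0.24) went with the negative probe, and those of Cideb (-0.82), Pnpla2 (-0.75), Plin2 (-0.74) and G0s2 (-0.69) went against it. These points share a scale and a library, so the correlations are descriptions. With each AOI's negative probe subtracted first, the diet calls left among the 10 genes were G0s2 in Wt periportal and Pnpla2 in Wt perivenous areas. These fits called 1164 and 1040 of all 6805 genes. How much of the rises and falls on the HFD came from the higher background was not tested beyond this.

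**Figure D2:**
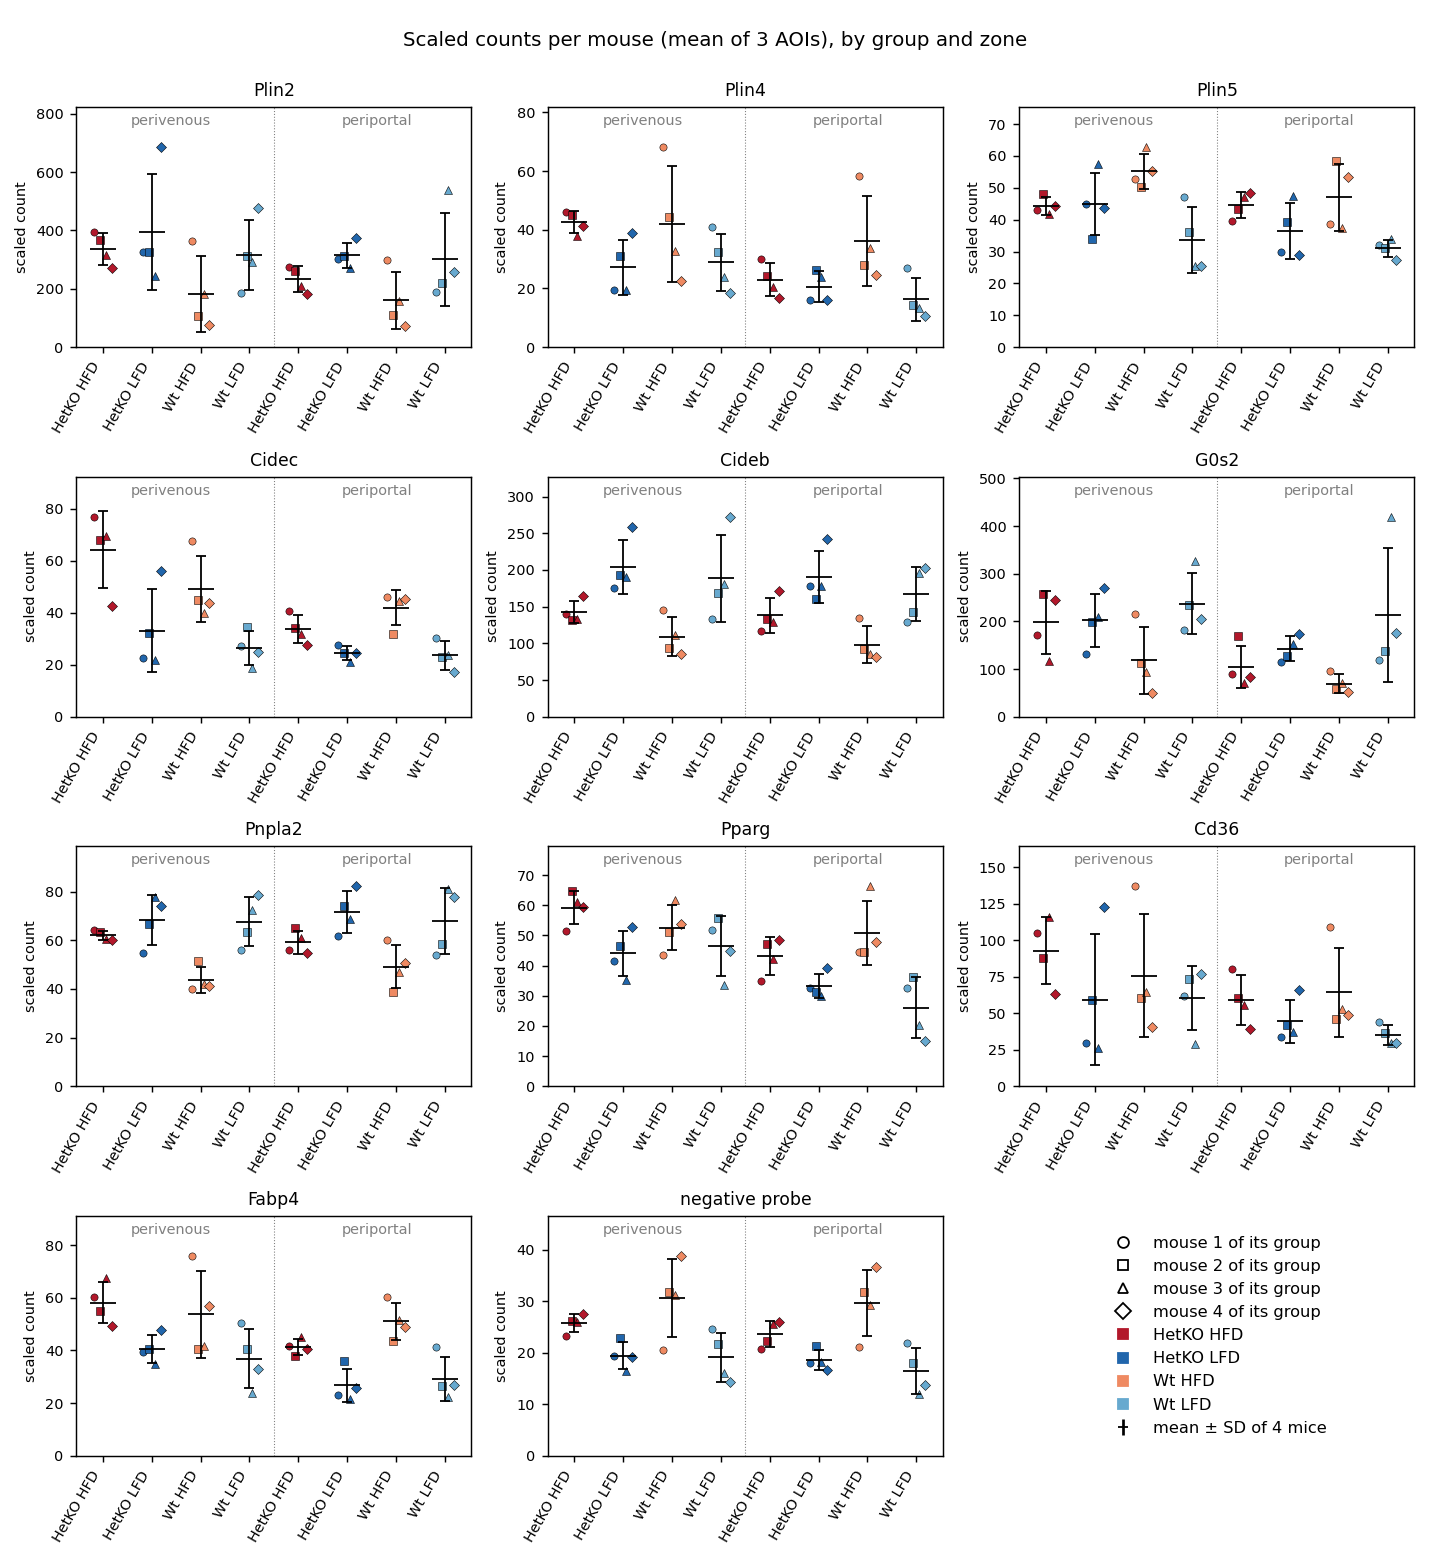
Scaled counts of the 10 genes in every mouse (points) with the mean ± SD of 4 mice, and those of the negative probe, by group and zone on linear axes from 0. Plin2, Cideb and G0s2 of Wt mice lay lower on the HFD in most mice, while the perivenous Cidec points of HetKO HFD mice reached 76.96.

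Plin2, the hepatocyte perilipin, had lower means on the HFD in Wt mice, and these differences did not pass the test. Its periportal scaled counts were 298, 112, 159.6 and 74.04 in Wt HFD mice and 188, 221, 537 and 256 in Wt LFD mice, a log2 difference of -0.98 (SE 0.38, adjusted p = 0.0638, limma). The groups overlapped through Wt HFD mouse 1, the highest of its group, and without this mouse the difference was -1.34 and was called (adjusted p = 0.00251). In perivenous areas Plin2 was at 364, 105, 182 and 77.2 in Wt HFD mice and 185, 313, 293 and 476 in Wt LFD mice (-0.98, SE 0.40, adjusted p = 0.0845), again with overlap through mouse 1 and called without it (-1.39, adjusted p = 0.00169). In HetKO mice the perivenous counts were 395, 366, 317 and 272 on the HFD and 326, 325, 243 and 686 on the LFD, a log2 difference of -0.13 (SE 0.24, adjusted p = 0.736, limma). The groups overlapped, and the single highest count, 686, came from HetKO LFD mouse 4, without which the difference was 0.18. The perivenous AOIs of this mouse held 652 nuclei on average, against 204 to 229 in the other HetKO LFD mice, and the part of this in its counts was not tested.

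Plin4 and Plin5, the perilipins with few AOIs above the LOQ, rose in some comparisons. Plin4, a perilipin of adipocytes and muscle, had periportal counts of 58.3, 28.1, 33.8 and 24.4 in Wt HFD mice and 26.8, 14.4, 13.5 and 10.5 in Wt LFD mice, 1.10 higher on the log2 scale (SE 0.29, adjusted p = 0.0163, limma). Only Wt HFD mouse 4 overlapped Wt LFD mouse 1. In HetKO perivenous areas Plin4 was at 45.9, 45.1, 37.9 and 41.3 on the HFD and 19.5, 31.1, 19.3 and 38.8 on the LFD (0.67, SE 0.19, adjusted p = 0.0237), with overlap through HetKO LFD mouse 4. In Wt perivenous areas the difference was 0.48 (adjusted p = 0.256, limma). Plin5 (chr17:56111597-56117606 on GRCm38.p6), which tethers droplets to mitochondria, is the neighbour of Plin4 (chr17:56100587-56109948). It was at 52.7, 50.2, 62.8 and 55.3 in Wt HFD and 47.1, 36.2, 25.5 and 25.4 in Wt LFD perivenous areas (0.74, SE 0.21, adjusted p = 0.0278). These groups did not overlap, and neither did the periportal ones (0.54, SE 0.19, adjusted p = 0.0428). With the negative probe subtracted the Wt periportal Plin5 difference turned to -0.12, while the median of all tested genes there moved to -0.98.

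The 2 CIDE proteins went in opposite directions. Cidec, the droplet-fusing member, had perivenous counts of 67.8, 44.8, 39.7 and 43.6 in Wt HFD mice and 27.4, 34.4, 18.8 and 24.9 in Wt LFD mice, 1.86-fold higher (log2 0.90, SE 0.23, adjusted p = 0.0190, limma). All Wt HFD mice were above all Wt LFD mice. In HetKO perivenous areas Cidec was at 76.96, 67.97, 69.5 and 42.6 on the HFD and 22.4, 32.2, 21.6 and 56.1 on the LFD, 2.01-fold higher (log2 1.01, SE 0.25, adjusted p = 0.0148). There HetKO HFD mouse 4 lay below HetKO LFD mouse 4 and above the other LFD mice. In periportal areas Cidec was called higher in Wt mice (0.77, SE 0.22, adjusted p = 0.0222, limma). This was less than the 0.82 of the negative probe, and 1 of 12 HFD AOIs was above the LOQ. In HetKO periportal areas Cidec was at 40.5, 34.3, 31.9 and 27.6 on the HFD and 27.7, 24.3, 21.1 and 24.5 on the LFD (0.44, SE 0.15, adjusted p = 0.0694). The HetKO periportal groups overlapped on these counts but not on means of log2 values, where HFD mouse 4 was at 4.82 and LFD mouse 1 at 4.80.

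Cideb, the lipoprotein-linked member, was detected in every AOI and fell in 3 of the 4 diet comparisons. Its periportal counts were 135, 91.7, 85.3 and 81.1 in Wt HFD mice and 129.7, 143, 196 and 203 in Wt LFD mice (-0.77, SE 0.21, adjusted p = 0.0195, limma). Wt HFD mouse 1 alone reached into the Wt LFD range. In Wt perivenous areas Cideb fell by 0.78 on the log2 scale (SE 0.23, adjusted p = 0.0313). In HetKO perivenous areas it was at 140.5, 132, 133 and 165 on the HFD and 176, 193, 191 and 259 on the LFD (-0.51, SE 0.14, adjusted p = 0.0202), with no overlap, and in HetKO periportal areas the difference was -0.46 (SE 0.16, adjusted p = 0.0736).

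G0s2, the inhibitor of the lipase, had the largest decrease on the HFD among the 10 genes, and it was confined to calls in Wt mice. Its periportal counts were 96.7, 57.6, 69.8 and 52.1 in Wt HFD mice and 120.0, 138, 419.9 and 176 in Wt LFD mice, 2.76-fold lower on the HFD (log2 -1.47, SE 0.33, adjusted p = 0.0101, limma). The groups did not overlap, with or without the highest animal, Wt LFD mouse 3. In perivenous areas G0s2 was at 216, 112, 94.1 and 49.3 in Wt HFD mice and 181, 235, 327 and 204 in Wt LFD mice (-1.15, SE 0.35, adjusted p = 0.0327), with overlap through Wt HFD mouse 1. In HetKO mice the perivenous counts were 172, 257, 117 and 245 on the HFD and 132, 198, 208 and 269 on the LFD (-0.05, SE 0.24, adjusted p = 0.898), which overlapped throughout. In HetKO periportal areas the difference was -0.52 (SE 0.22, adjusted p = 0.140, limma).

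Pnpla2, the lipase, fell in Wt perivenous areas only by the test, where it was at 40.1, 51.5, 42.2 and 41.03 in HFD mice and 55.9, 63.2, 72.3 and 78.8 in LFD mice (-0.64, SE 0.18, adjusted p = 0.0262, limma). These groups did not overlap. In Wt periportal areas the log2 difference was -0.45 (SE 0.20, adjusted p = 0.108).

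Pparg itself rose in Wt periportal and HetKO perivenous areas. The Wt periportal counts were 44.6, 44.4, 66.3 and 47.9 on the HFD and 32.6, 36.2, 20.2 and 14.8 on the LFD, 2.02-fold higher (log2 1.01, SE 0.27, adjusted p = 0.0162, limma). Every Wt HFD mouse was above every Wt LFD mouse, with 4 of 12 periportal AOIs above the LOQ on the HFD and 0 of 12 on the LFD. In HetKO perivenous areas Pparg was at 51.5, 64.7, 61.2 and 59.5 on the HFD and 41.6, 46.3, 35.3 and 52.9 on the LFD (0.43, SE 0.13, adjusted p = 0.0349), with overlap of 1 mouse from each diet. In Wt perivenous areas, where the LFD level was already 33.4 to 55.8, the difference was 0.19 (SE 0.20, adjusted p = 0.497).

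Cd36 and Fabp4, both Pparg targets, were called higher on the HFD in Wt periportal areas, but by less than the negative probe (0.82). There each was above the LOQ in 4 of 12 HFD AOIs, and neither was called with the negative probe subtracted. Cd36 was at 109, 45.9, 52.8 and 48.8 in Wt HFD mice and 43.7, 36.7, 29.7 and 29.6 in Wt LFD mice (0.78, SE 0.26, adjusted p = 0.0359, limma). The groups did not overlap, and mouse 1 of the Wt HFD group was far above the rest. In perivenous areas Cd36 was at 105, 87.6, 116 and 63.2 in HetKO HFD mice and 29.3, 58.9, 26.3 and 123 in HetKO LFD mice, a log2 difference of 0.90 (SE 0.36, adjusted p = 0.0863), and HetKO LFD mouse 4 was above all others. In Wt perivenous areas it was 0.28 higher (SE 0.36, adjusted p = 0.583, limma), and -0.057 without Wt HFD mouse 1. Fabp4 was called in 3 of the 4 comparisons: in HetKO perivenous areas it was at 60.3, 54.9, 67.6 and 49.4 on the HFD and 39.5, 40.6, 35.02 and 47.8 on the LFD (0.49, SE 0.13, adjusted p = 0.0184), with no overlap. In periportal areas it rose 1.74-fold in Wt mice (adjusted p = 0.0147) and 1.52-fold in HetKO mice (adjusted p = 0.0384, limma). In Wt perivenous areas the difference was 0.57 (SE 0.26, adjusted p = 0.118).

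**Figure D3:**
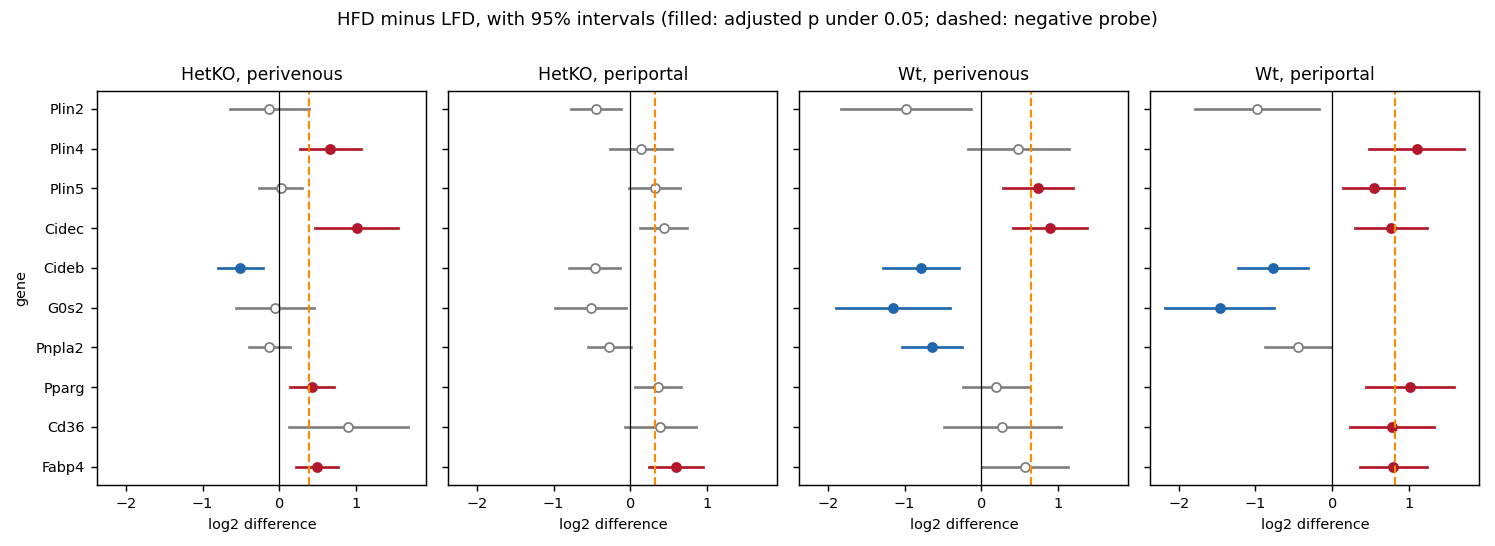
Log2 difference, HFD minus LFD, of the 10 genes with its 95% confidence interval, in both genotypes and zones, with the difference of the negative probe. G0s2 in Wt periportal areas was the lowest at -1.47 and Plin4 in Wt periportal areas the highest at 1.10, and the negative probe stood at 0.82 there.

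Calls over all genes and over the 10 members both depended on single mice in the diet comparisons. In Wt periportal areas all 10 members were called without Wt HFD mouse 1, in a fit that called 41.6% of all genes, and 9 without Wt LFD mouse 1 (34.7%). G0s2 alone was left without Wt LFD mouse 3 (10.6%), and G0s2 and Fabp4 without Wt LFD mouse 4 (11.6%) or Wt HFD mouse 3 (12.6%). There were 5 without Wt HFD mouse 2 (9.42%) or mouse 4 (11.2%). In Wt perivenous areas 6 were called without Wt HFD mouse 1 (40.6% of all genes) or Wt LFD mouse 1 (27%), 3 without Wt LFD mouse 2 (Plin5, Cidec and Pnpla2, 16.9%), 1 without Wt HFD mouse 4 (Cidec, 6.08%) and 0 without each of the other 4 mice (1.81% to 3.29%). In HetKO perivenous areas 2 were called without HetKO HFD mouse 2 or 3 or HetKO LFD mouse 1 or 3 (11.2% to 11.9% of all genes), and 6, with Cd36 among them, without HetKO LFD mouse 4 (20.3%). Cidec was called there whichever mouse was left out. In HetKO periportal areas 2 were called without HetKO HFD mouse 1 or 2 or HetKO LFD mouse 2 (3.73% to 15.5% of all genes), and 0 without each of the other 5 mice (0.441% to 2.76%).

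Markers of cell types moved with diet as well. Hepatocyte markers fell, 10 of 11 in both Wt zones, 6 of 11 in HetKO periportal and 10 of 11 in HetKO perivenous areas. Of all tested genes 12.7% (Wt periportal), 12.3% (Wt perivenous), 5.19% (HetKO periportal) and 9.74% (HetKO perivenous) were called lower. The summed scaled count of the hepatocyte markers spanned 12186 to 49626 in Wt HFD and 54083 to 103262 in Wt LFD periportal areas. The upper quartile used for scaling, 60.2, lay below the mean LOQ of Wt HFD areas, and its part in these falls was not tested. Of 8 adipocyte markers Cfd alone was measured, was never above the LOQ in most AOIs, and rose in each of the 4 comparisons: it spanned 38.1 to 60.9 in Wt HFD and 25.8 to 31.3 in Wt LFD periportal areas, and 32.6 to 54.5 in HetKO HFD and 23.2 to 34.3 in HetKO LFD perivenous areas. Of 8 tested Kupffer cell and macrophage markers 1 fell in Wt periportal and 1 rose in Wt perivenous areas, and none was called in HetKO mice. Their sum spanned 390.1 to 728 in Wt HFD and 482 to 650.2 in Wt LFD periportal areas. Of 10 tested endothelial markers 2 rose, both in HetKO perivenous areas, where their sum spanned 461 to 673 on the HFD and 448 to 504 on the LFD. The part of these cells in the rises of Cidec, Plin4, Pparg, Cd36 and Fabp4 was not tested.

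Other droplet and lipase genes were counted from lists beside the members. Among 13 other lipid droplet proteins none rose on the HFD in any of the 4 comparisons, and Mettl7b, a droplet-associated methyltransferase-like protein, fell in all 4 (-1.35 in Wt periportal, -1.32 in Wt perivenous, -0.71 in HetKO periportal and -0.61 in HetKO perivenous areas). Of 15 other lipolysis genes 4 and 5 fell in Wt periportal and perivenous areas with none rising, 1 fell in HetKO periportal areas, and 2 rose and 3 fell in HetKO perivenous areas. Of 10 genes of triglyceride synthesis 3 fell in each Wt zone, 1 in HetKO periportal and 2 in HetKO perivenous areas, and none rose. Dgat2, which makes triglyceride from diglyceride, fell by 1.37 in Wt periportal, 1.30 in Wt perivenous and 0.66 in HetKO perivenous areas.

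Of the other targets and partners of Pparg more fell than rose in each comparison. Of 18 tested, 2 rose and 4 fell in Wt periportal, 1 and 4 in Wt perivenous, 1 and 3 in HetKO periportal and 1 and 6 in HetKO perivenous areas. Over all tested genes 15.4% rose and 12.7% fell in Wt periportal and 10.2% and 12.3% in Wt perivenous areas. The shares were 3.63% and 5.19% in HetKO periportal and 12.4% and 9.74% in HetKO perivenous areas. Cebpa, a transcription factor that works with Pparg in adipocytes, fell in all 4 comparisons, by 1.37 in Wt periportal and 0.64 in HetKO perivenous areas. Of 17 genes of Ppara, the receptor of fatty acid oxidation, and its targets, 10 fell and 1 rose in Wt periportal and 11 fell in Wt perivenous areas, with median log2 differences of -0.87 and -1.01. In HetKO mice 1 fell and 2 rose in periportal and 2 fell and 1 rose in perivenous areas.

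Across the lobule the members were higher in perivenous than in periportal areas wherever they were called, with the mouse as a block. In HetKO HFD mice this held for 7 of 10 genes, Plin2, Plin4, Cidec, G0s2, Pparg, Cd36 and Fabp4, where 2.54% of all genes were called higher and 2.29% lower. It held for 3 of 10 in HetKO LFD mice (G0s2, Pparg and Fabp4), where 3.63% of all genes were called higher, and for 3 of 10 in Wt LFD mice (Plin4, Pparg and Cd36), where 2.65% were. In Wt HFD mice none of the 10 was called at an adjusted p under 0.05 by limma, 1 had an unadjusted p under 0.05, and 0.705% of all genes were called higher. The zones did not overlap for 4 of the 10 genes in HetKO HFD mice (7.38% of all genes), and for 0 of the 10 in HetKO LFD (6.36%), Wt HFD (2.15%) and Wt LFD mice (5.32%). The 10 genes had a median difference of 0.53 for HetKO HFD, 0.32 for HetKO LFD, 0.17 for Wt HFD and 0.21 for Wt LFD mice, and that of all genes was within 0.03 of 0 in every group. The negative probe differed between zones by 0.12 for HetKO HFD, 0.06 for HetKO LFD, 0.03 for Wt HFD and 0.21 for Wt LFD mice.

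In HetKO HFD mice Cidec was at 76.96, 67.97, 69.5 and 42.6 in perivenous areas of mice 1 to 4 and at 40.5, 34.3, 31.9 and 27.6 in their periportal areas, 1.93-fold higher (log2 0.95, SE 0.12, adjusted p = 1.47e-05, limma). The zones did not overlap. Plin4 was at 45.9, 45.1, 37.9 and 41.3 in perivenous and 30.2, 24.2, 20.5 and 16.9 in periportal areas (0.90, SE 0.13, adjusted p = 4.70e-05), again with no overlap. Its periportal mean, 22.95, was at the level of the negative probe, 23.6. Of 12 AOIs 3 were above the LOQ in perivenous and 0 in periportal areas. G0s2 was at 172, 257, 117 and 245 in perivenous and 90.2, 169, 71.6 and 83.2 in periportal areas (0.95, SE 0.14, adjusted p = 8.51e-05). Its zones overlapped through the periportal count of mouse 2, but each mouse was higher in its own perivenous areas.

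The other called genes of these mice had smaller differences between zones. Plin2 was 0.55 higher in perivenous areas (SE 0.11, adjusted p = 0.00410, limma), with a difference of 0.49 to 0.60 in the 4 mice. Cd36 was 0.69 higher (SE 0.13, adjusted p = 0.00131) and differed by 0.38 to 1.09 within mice. Fabp4 was 0.52 higher (SE 0.12, adjusted p = 0.00904) and Pparg 0.45 higher (SE 0.12, adjusted p = 0.0222), both with no overlap of zones. All 7 genes were higher in perivenous areas in 4 of 4 HetKO HFD mice. Plin5, Cideb and Pnpla2 differed by -0.03, 0.06 and 0.07. With 1 mouse left out, 5 or 6 of the 10 genes were called (3.31% to 4.36% of all genes), and Plin2, Plin4, Cidec, G0s2 and Cd36 were called each time, whereas Fabp4 was not called without mouse 2 or 3 and Pparg was called only without mouse 2. With the negative probe subtracted Cidec was the only member called, in a fit that called 49 of all 6805 genes.

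On the LFD the zoned genes were partly others. In Wt LFD mice Plin4 was at 40.8, 32.4, 23.9 and 18.5 in perivenous and 26.8, 14.4, 13.5 and 10.5 in periportal areas, 1.76-fold higher and higher in 4 of 4 mice (adjusted p = 0.000965, limma). Its periportal mean, 16.3, was at the level of the negative probe, 16.5. Of 12 AOIs 2 were above the LOQ in perivenous and 0 in periportal areas. Pparg was at 51.8, 55.8, 33.4 and 44.96 in perivenous and 32.6, 36.2, 20.2 and 14.8 in periportal areas, 1.86-fold higher and higher in 4 of 4 mice (adjusted p = 0.00304). Cd36 was 1.64-fold higher (adjusted p = 0.0323) and higher in 3 of 4 mice, and was not called without Wt LFD mouse 2 or mouse 4. In HetKO LFD mice Fabp4 was at 39.5, 40.6, 35.02 and 47.8 in perivenous and 23.2, 36.02, 21.7 and 25.8 in periportal areas (0.63, SE 0.12, adjusted p = 0.00496). G0s2 was 1.40-fold and Pparg 1.31-fold higher (adjusted p = 0.0111 and 0.0260), each in 4 of 4 mice, but Fabp4 alone was called without HetKO LFD mouse 2, and Pparg was called only without mouse 3. In Wt HFD mice G0s2 had the single unadjusted p under 0.05, with a difference of 0.64 (SE 0.18, adjusted p = 0.119), and it was called without Wt HFD mouse 4.

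**Figure D4:**
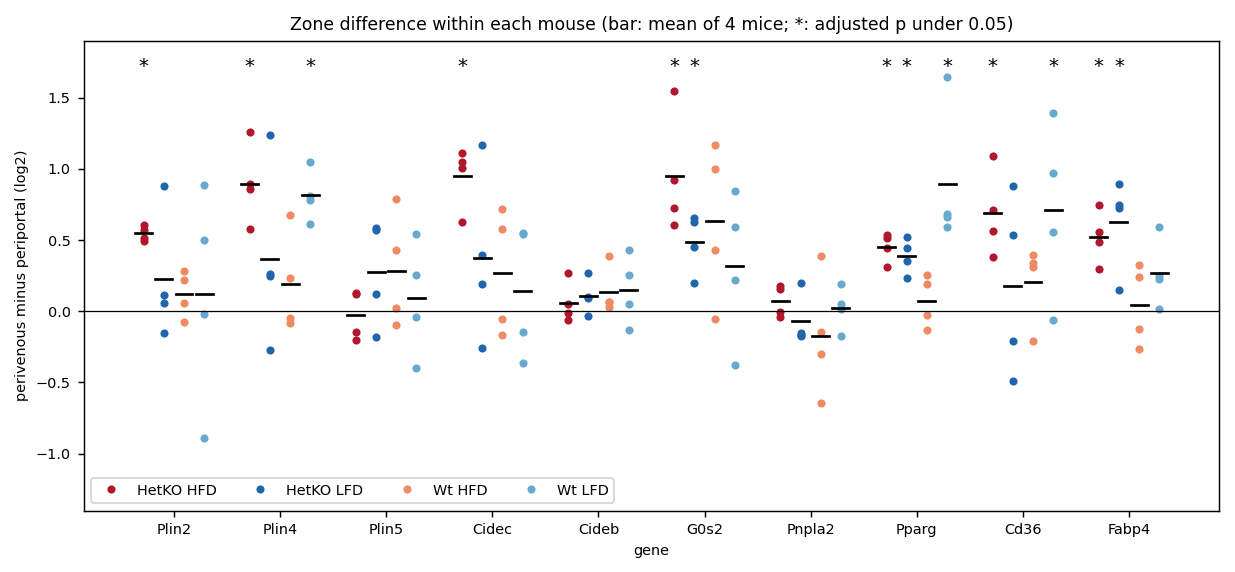
Log2 difference, perivenous minus periportal, of the 10 genes in each mouse (points) and its mean, by genotype and diet. The 4 HetKO HFD mice lie above 0 for Plin2, Plin4, Cidec, G0s2, Pparg, Cd36 and Fabp4, while Plin5, Cideb and Pnpla2 lie near 0.

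Other genes of droplet biology were zoned in both directions. Hsd17b13, a droplet-bound dehydrogenase of hepatocytes, was lower in perivenous areas by 2.33 (HetKO HFD), 2.63 (HetKO LFD), 1.92 (Wt HFD) and 2.76 (Wt LFD), opposite to the members. Of 13 other lipid droplet proteins 2 were higher and 1 lower in each HetKO group, 0 and 1 in Wt HFD mice and 1 and 1 in Wt LFD mice. Of 15 other lipolysis genes 4 were higher and 1 lower in HetKO HFD, 4 higher for HetKO LFD, 1 higher for Wt HFD and 3 higher for Wt LFD mice, and Mgll, which cleaves monoglyceride, was 0.53 and 0.56 higher in HetKO HFD and HetKO LFD mice. Of 17 genes of Ppara and its targets 5 were higher in each HetKO group, 1 in Wt HFD and 6 in Wt LFD mice, and none was lower. The adipocyte marker Cfd differed by 0.02 in HetKO HFD mice. Kupffer cell and macrophage markers were lower in perivenous areas of LFD mice, 5 of 8 in each genotype, and 1 of 8 in HetKO HFD mice. Endothelial markers were higher in perivenous areas of HetKO HFD mice, 2 of 10, with sums of 461 to 673 in perivenous and 450.2 to 521 in periportal areas. Their part in the zoned members was not tested.

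Between genotypes none of the 10 genes was called in either zone on either diet, and neither was any other gene (0% of 6805, limma, adjusted p under 0.05). On the LFD 0 of the 10 had an unadjusted p under 0.05 in either zone, as did 222 of all genes in periportal and 95 in perivenous areas. On the HFD 4 of the 10 did in periportal areas (Plin2, Plin4, Cideb and G0s2) beside 992 of all genes, and 5 in perivenous areas (Plin2, Plin5, Cideb, G0s2 and Pnpla2) beside 1019. Plin2 was at 395, 366, 317 and 272 in HetKO HFD and 364, 105, 182 and 77.2 in Wt HFD perivenous areas, a log2 difference of 1.14 with a 95% confidence interval of 0.36 to 1.92 (adjusted p = 0.250). Of the Wt HFD mice 3 were below every HetKO HFD mouse, and mouse 1 lay among them. Pnpla2 was at 64.01, 63.2, 60.4 and 60.2 in HetKO HFD and 40.1, 51.5, 42.2 and 41.03 in Wt HFD perivenous areas, 0.53 higher (0.23 to 0.83, adjusted p = 0.250), and these groups did not overlap.

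The remaining differences between genotypes on the HFD were smaller or less even. G0s2 was at 172, 257, 117 and 245 in HetKO HFD and 216, 112, 94.1 and 49.3 in Wt HFD perivenous areas, 0.87 higher with an interval of 0.07 to 1.66 (adjusted p = 0.298, limma). Cideb was 0.50 higher in periportal (0.10 to 0.90) and 0.42 higher in perivenous areas (0.05 to 0.79). Plin4 was 0.58 lower in HetKO periportal areas (interval -1.11 to -0.05), and Plin5 was 0.32 lower in HetKO perivenous areas (-0.61 to -0.03). On the LFD the groups overlapped for all 10 genes in periportal (2.03% of all genes did not) and perivenous areas (1.37%). On the HFD they did not overlap for 0 of the 10 in periportal (4.41%) and 2 in perivenous areas (5.26%), Plin5 and Pnpla2. The negative probe was 0.30 lower in periportal and 0.21 lower in perivenous areas of HetKO HFD mice, as log2 differences.

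These comparisons turned on Wt HFD mouse 1. Without it 3 of the 10 genes were called in periportal areas (Plin2 1.07, Cideb 0.66 and G0s2 0.73 higher in HetKO mice), where 19.1% of all genes were called. Without it 6 were called in perivenous areas, all higher in HetKO mice (Plin2 1.55, G0s2 1.22, Cd36 0.74, Cideb 0.56, Cidec 0.54 and Pnpla2 0.48), where 21.2% of all genes were. Leaving out any other mouse gave 0 calls. The 3 other Wt HFD mice had the highest negative probe of the study, 29.3 to 38.9, and 12.7% to 17.6% of all targets above the LOQ, against 45.2% and 29.6% in periportal and perivenous areas of mouse 1 and 34.5% to 45.9% in HetKO HFD mice. Whether genotype or these values set the differences was not tested.

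**Figure D5:**
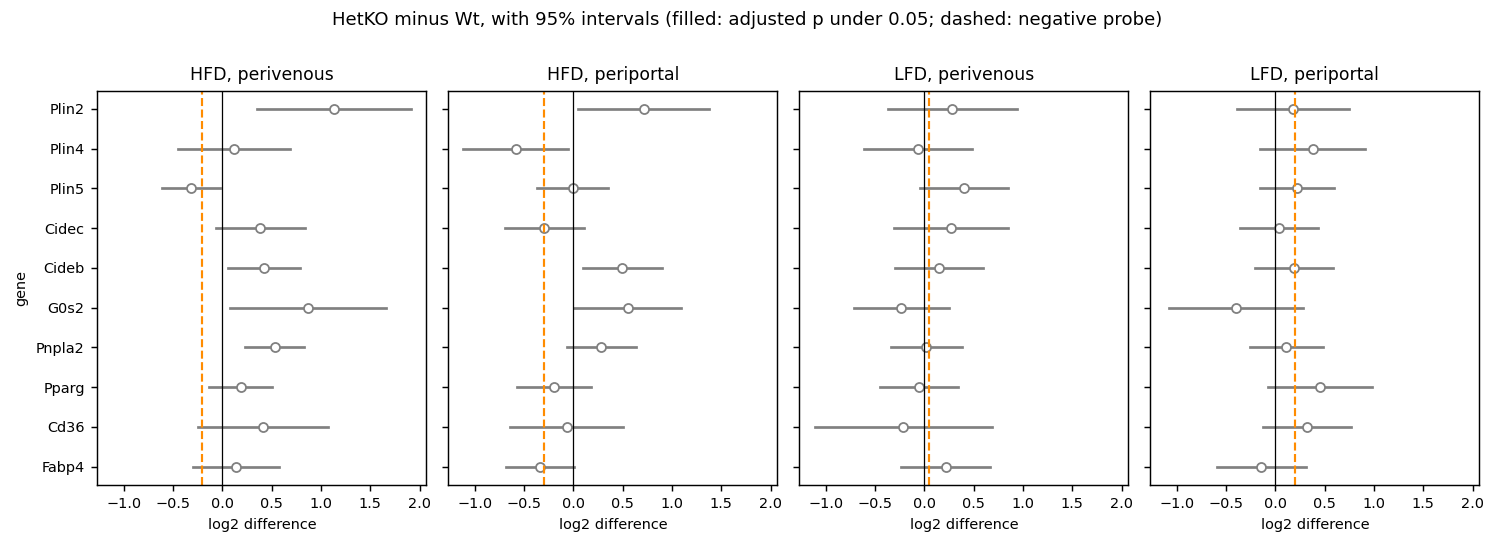
Log2 difference, HetKO minus Wt, of the 10 genes with its 95% confidence interval, by diet and zone. On the LFD every interval includes 0, and on the HFD Plin2 in perivenous areas is highest at 1.14, with no gene passing the adjusted threshold.

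Tests of the difference between diet effects gave no call among the 10 genes. The HFD effect in Wt mice was 0.82 smaller in perivenous than in periportal areas for Pparg (unadjusted p = 0.00137, adjusted p = 0.165, limma) and 0.62 smaller for Plin4 (adjusted p = 0.323), where 0.441% of all genes were called. In HetKO mice the log2 difference HFD minus LFD was higher in perivenous than in periportal areas by 0.57 for Cidec, 0.53 for Plin4 and 0.51 for Cd36, and by 0.46 for G0s2, where it was -0.05 in perivenous and -0.52 in periportal areas (each adjusted p = 0.847). Of all genes 0.0294% were called, and Cidec was called without HetKO LFD mouse 4. Between genotypes the log2 difference HFD minus LFD of G0s2 was higher in HetKO than in Wt mice by 0.95 in periportal (adjusted p = 0.463) and 1.10 in perivenous areas (adjusted p = 0.775). It was 0.96 lower in HetKO mice for Plin4 in periportal (adjusted p = 0.463) and 0.72 lower for Plin5 in perivenous areas (adjusted p = 0.775), and 0.51 higher for Pnpla2 in perivenous areas, and 0% of all genes were called. The calls of Wt and HetKO mice above are therefore not shown to differ.

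The members fell into sets by their course over the 32 means of a mouse and zone. Cidec went with Fabp4 (r = 0.83), Cd36 (0.81) and Plin4 (0.77), and within groups these were 0.62, 0.79 and 0.58. Plin2 went with Cideb (0.81, within groups 0.71) and G0s2 (0.78, within groups 0.69), and Cideb with Pnpla2 (0.79, within groups 0.53). Plin5 ran against Pnpla2 (-0.59, within groups -0.32). The points share the scale of an AOI and the background given above, and the values are descriptions.

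Among all tested genes those most like a member were sought for the 5 members above the LOQ in at least 48 AOIs. Plin2 was closest to Hadh (0.93), Gpx4 (0.93) and Ech1 (0.93), of which Hadh and Ech1 are enzymes of fatty acid oxidation. Cideb was closest to Got2 (0.95), Idh1 (0.94) and Psmb1 (0.94). G0s2 was close to Ppara (0.88), the receptor of fatty acid oxidation, and Acsl1 (0.88), a fatty acid activating enzyme. Pnpla2 was closest to Acadvl (0.85), Serbp1 (0.84) and Creb3l3 (0.84). Cd36 was closest to Cyp2b13 (0.89), Lgals1 (0.86) and its fellow member Cidec (0.81). All are Pearson correlations over 32 means, not taken within groups, and are descriptions. Over the same means Plin2 (-0.74), Cideb (-0.82), Pnpla2 (-0.75) and G0s2 (-0.69) went against the negative probe. The part of background, diet and slide in these likenesses was not tested.

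For 5 of the 10 members mice differed from each other more than the AOIs of a mouse did. The SD of log2 values between mice of a group was 0.61 for Plin2, 0.60 for Cd36, 0.57 for G0s2, 0.47 for Plin4 and 0.30 for Cideb, against 0.19, 0.30, 0.25, 0.29 and 0.18 between AOIs of a mouse. For Cidec, Fabp4, Plin5, Pnpla2 and Pparg the SD between single AOIs was the larger one, 0.41 against 0.37 for Cidec and 0.41 against 0.32 for Fabp4. Divided by the square root of 3, as for a mean of 3 AOIs, it was below the SD between mice for every member. It was then 0.23 for Cidec, 0.24 for Fabp4, 0.19 for Plin5, 0.17 for Pnpla2 and 0.18 for Pparg. The spread between animals was largest in Plin2, Cd36 and G0s2, as in Wt HFD mouse 1 and HetKO LFD mouse 4.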

How the data were processed

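The authors placed the AOIs, sequenced the probe barcodes and counted them with GeoMx NGS Pipeline 2.3.3.10. The processing notes name build mm10. The deposited expression values are a signal, namely deduplicated reads scaled to an upper quartile of 60.2 in each of 96 AOIs, although the study's methods describe a normalisation to nuclei. The segment table deposited by the authors gives counts of reads and nuclei, sequencing saturation in percent and, per AOI, the LOQ and the negative probe signal in unscaled reads. 9 columns of per-sample values were not used. A gene was above the LOQ where its unscaled value exceeded it. The 3 AOIs of a zone were averaged within each mouse as log2(value + 1), and genes above the LOQ in at least 10 AOIs were fitted with limma 3.58.1 (R 4.3.3), with Benjamini-Hochberg adjustment over all of them. Printed scaled counts are plain means over AOIs, and folds are taken from the log2 difference. The methods describe a count model, which was not run, and limma was used on the scaled values. Undoing the scale gave whole numbers for 99.9% of the values. Diet and genotype were compared within the other factor and zone. Zones were compared within mice, since the labels give both zones of each animal, and the deviations of the zones of a mouse correlated at 0.08 to 0.77. The mouse was the replicate, and nothing states litters. The members and gene lists were chosen with earlier results of these data known. All members were named. Other genes were named as controls, as the 3 genes most correlated with a member above the LOQ in at least 48 AOIs, or as list genes with the smallest adjusted p in a comparison, and Mgll was chosen after its values were seen. Some genes that this rule names are not reported here. Promoters came from RefSeq on GRCm38.p6. The fitting script was tested on simulated data. Alternatives were another pseudocount, averaging before the logarithm, no or a stricter LOQ filter, subtraction of the negative probe, scaling by nuclei, a minimum log2 difference of 0.80, a fit over 4 groups, the replicate block and each mouse left out.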

Additional observations from a re-analysis of the deposited data

Results flagged for a closer look

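In 3 of the 80 sets of 4 mice examined (a member, group and zone each), 1 mouse lay far from the other 3, where chance alone sets apart about 1 in 20. All 3 sets were Wt HFD periportal areas. Cd36 was at 109 in mouse 1 and 45.9 to 52.8 in the others. Cidec was at 31.9 in mouse 2 and 44.4 to 46.04 in the others. Pparg was at 66.3 in mouse 3 and 44.4 to 47.9 in the others. Among 40 tests of whether a diet effect on a member differed between zones or genotypes, 0 passed an adjusted p under 0.05 in limma.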

How the results depend on the processing

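Of 32 differences of single members called, all 32 were called again when AOIs were averaged before the logarithm, with a pseudocount of 10 and without the LOQ filter. None of these 32 changed direction when 1 mouse was left out, and 83 of 204 such fits lost the call. With the filter set at 48 AOIs, which left 5 members, the members called were 3 in Wt periportal, 3 in Wt perivenous, 0 in HetKO periportal and 1 in HetKO perivenous areas for the diet, and for the zone 3 (HetKO HFD), 1 (HetKO LFD), 1 (Wt HFD) and 1 (Wt LFD). Of the 2908 genes then tested, 947, 937, 428 and 748 were called for the diet and 357, 485, 167 and 377 for the zone, in the same orders. With the negative probe subtracted the members called were 1, 1, 0 and 0 for the diet, in the same order of areas, and 1 in HetKO HFD, 0 in HetKO LFD and 1 in Wt LFD mice for the zone. Of all 6805 genes 1164, 1040, 10 and 582 were called for the diet there, and 49, 151 and 97 for the zone. Under this subtraction the diet difference turned to -0.12 for Plin5 in Wt periportal areas, and in Wt perivenous areas to -0.29 for Plin4, -0.34 for Pparg and -0.49 for Cd36, each not called. The median of all tested genes moved to -0.98 in Wt periportal and -0.98 in Wt perivenous areas, below each of these members. With scaling by nuclei the members called were 1, 0, 0 and 0 for the diet and 0 in HetKO LFD and Wt LFD mice for the zone, and 8 for HetKO against Wt on the LFD in periportal areas, where the median of all genes moved by 0.84 and 6240 genes were called. Of all genes 322, 1, 24 and 0 were called for the diet by nuclei, and 44 in HetKO LFD and 43 in Wt LFD mice for the zone. A minimum log2 difference of 0.80 gave 3, 2, 0 and 1 members for the diet, and 3 in HetKO HFD and 0 in HetKO LFD mice for the zone. Of all 6805 genes it left 968, 897, 81 and 114 for the diet and 120 and 136 for the zone. A fit over all 4 groups gave 0 members in both HetKO zones for the diet, with 4 genes of all kinds called in periportal and 2 in perivenous areas against 600 and 1504. A pseudocount of 10 gave 1 member for the zone in Wt HFD mice, where 156 of all genes were called. Genes of all kinds called for the diet in Wt periportal areas numbered 1911, against 2716 over 4 groups, 1164 with subtraction, 322 by nuclei and 797 with the replicate block.

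Same-numbered mice of different groups share only a number, with correlations of -0.59 to 0.15 for diet and -0.17 to 0.48 for genotype. With the replicate block the members called were 5 in Wt periportal, 0 in Wt perivenous and 0 in HetKO periportal areas for the diet (797, 50 and 394 of all genes), and 2 for HetKO against Wt on the HFD in perivenous areas (Plin2 and Pnpla2), a fit that called 386 of 6805 genes against 0 without the block. Without the pairing of zones by mouse the members called were 4 in HetKO HFD, 0 in HetKO LFD and 0 in Wt LFD mice, where 220, 141 and 126 of all 6805 genes were called.

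With 1 mouse left out the members called ranged from 1 to 10 in Wt periportal (10.6% and 41.6% of all genes in those fits), 0 to 6 in Wt perivenous (40.6% of all genes at the upper end without Wt HFD mouse 1), 0 to 2 in HetKO periportal and 2 to 6 in HetKO perivenous areas for the diet. For the zone they ranged from 5 to 6 (HetKO HFD, 3.31% to 4.36% of all genes), 1 to 3 (HetKO LFD, 3.94% to 6.48%), 0 to 1 (Wt HFD, 1.35% to 1.66%) and 2 to 3 (Wt LFD, 3.56% to 5.04%). For HetKO against Wt they ranged from 0 to 3 in periportal and 0 to 6 in perivenous areas on the HFD and stayed at 0 on the LFD. For the zone difference of the diet effect in HetKO mice they ranged from 0 to 1. Some diet differences not called in perivenous areas turned: Cd36 in Wt mice ranged from -0.057 (without Wt HFD mouse 1; -0.044 without Wt LFD mouse 3) to 0.52, Plin2 in HetKO mice from -0.32 to 0.18 (without HetKO LFD mouse 4), and G0s2 in HetKO mice from -0.24 to 0.17 (without HetKO HFD mouse 3; 0.10 without HetKO LFD mouse 4). The cause of these changes was not tested. The methods' count model was not run. Plin4, Cidec and Plin5 were above the LOQ in the fewest AOIs, 12, 18 and 27 of 96, and whether depth or background set this was not tested.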
